A study of Saccharomyces cerevisiae with 6 samples.

Results

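The ADE genes encode the enzymes that build adenine nucleotides from phosphoribosyl pyrophosphate (PRPP). The 10 analysed here, ADE4, ADE5,7, ADE8, ADE6, ADE2, ADE1, ADE13, ADE16, ADE17 and ADE12, were found by name among the 6416 transcript rows deposited for this series, and each name matched 1 row. All 10 passed the filter on low values. Libraries came from cultures of BY4741, a standard laboratory strain of the budding yeast Saccharomyces cerevisiae, grown with galactose as the carbon source in synthetic complete medium. One group of 3 (replicates 1 to 3) expressed NdeltaCit1-DS/AA and the other group of 3 (replicates 4 to 6) expressed NdeltaCit1-DS/AA-H/G; the short names DS/AA and DS/AA-H/G are used below. Both are forms of the mitochondrial citrate synthase Cit1 without its presequence, the leader that directs the protein into mitochondria, and the series asks what their accumulation does to the cell. Thus both groups carry a presequence-less form, and no strain without one was analysed here. The labels do not say which substitutions the names stand for, which promoter drives the constructs, or whether replicates came from separate cultures. The p-values therefore reflect only the spread between these libraries, which may be technical.

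Yeast makes inosine monophosphate (IMP) along a single chain of reactions on a ribose phosphate backbone, and then turns IMP into adenosine monophosphate (AMP) or into guanine nucleotides. The chain consumes glutamine, glycine, aspartate and formyl groups carried by folate. The transcription factors Bas1 and Pho2 together are known for activating most ADE genes when adenine is scarce, and intermediates of the late part of the pathway are known to promote their pairing. Bas1 recognises the bases TGACTC, which are also the core of the site of Gcn4, the activator of amino acid synthesis genes.

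Both strands of the sequence before each start codon were searched for TGACTC in the R64 genome, whose RefSeq coordinates matched those of the deposited rows for all 10 genes. The motif stood within 500 bases of the start codon in 9 of the 10 ADE genes, against 13.1% of 6326 genes with such a window, and 6 ADE genes held 2 matches, against 1.42% of all genes with 2 or more. Within 300 bases it stood in 8 of 10, against 8.09% of all genes. ADE16 was the ADE gene with no match in either window. The motif and both search lengths were chosen after seeing the data. The windows below are shown because ADE16 was also the ADE gene that did not pass the test between the strains. Each is the match nearest to the start codon, read 5′ to 3′ on the strand of the gene, with every match on either strand in capitals, so that a match on the opposite strand reads GAGTCA.
ADE4: gacccgatgtatTGACTCttcctgaccgaa
ADE5,7: acaagtgccgacTGACTCgtgtcctggtaa
ADE8: actcgttgctagTGACTCtgacctgttttt
ADE6: ttcaaccgttccTGACTCtttcctgctgac
ADE2: atactaagtgatTGACTCttgctgaccttt
ADE1: cacGAGTCAgtcTGACTCttgcgagagatg
ADE13: cctccgcgagcaGAGTCAaacttcaaacaa
ADE17: ccagaaatgaatTGACTCctctcataactt
ADE12: atccttttcattGAGTCAcagattaacaaa

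The ADE17 window is chrXIII:509440-509469 on the minus strand, and its motif begins 177 bases before the start codon. The motif of the ADE4 window (chrXIII:867431-867460, minus strand) began 357 bases before its start codon, so ADE4 was the gene added by the wider search. Over the 9 genes the 15 matches began 153 to 457 bases before the start codon, 11 on the strand of the gene and 4 on the opposite strand. ADE12 was the member in which a match was part of the longer, palindromic site TGANTCA bound by Gcn4, which 12.1% of genes hold within 500 bases. A match is a description of the letters and was not tested as a binding site.

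In DS/AA, 9 of the 10 ADE genes rose relative to DS/AA-H/G and none fell. They included every step from PRPP to AMP, since ADE17 rose at the step where ADE16 did not. Across all 6197 genes tested 41.8% passed, 22.1% as rises and 19.7% as falls. The median change of the 10 genes was 0.43 on the log2 scale, or 1.35-fold, where the median of all tested genes was 0.01. ADE17 stood apart at 4.09-fold, and the other 8 risers lay between 1.17-fold and 1.59-fold. In the same 9 genes all 3 DS/AA libraries lay above all 3 DS/AA-H/G libraries, as 27.8% of all tested genes did. The test was limma on log2(value + 1), with Benjamini-Hochberg adjustment over all tested genes and a threshold of 0.05. The values are the authors' estimated read counts scaled to a common depth, called scaled counts here. Levels are given as the mean ± SD over 3 libraries, and changes as the log2(value + 1) difference between the strains ± SE, positive where DS/AA was higher.

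**Figure D1:**
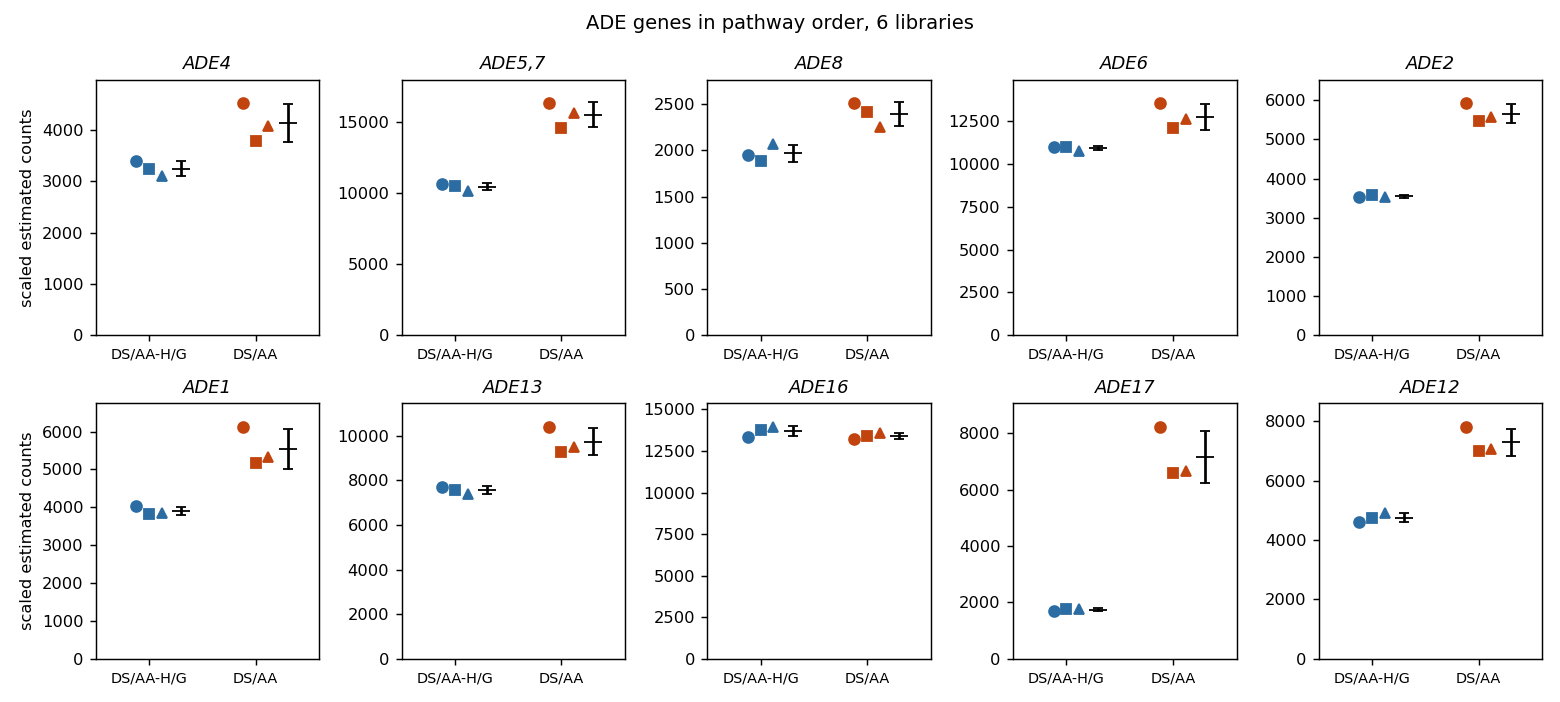
Scaled estimated counts (vertical axes, from 0) of the 10 ADE genes in pathway order. Points are libraries (circle, square and triangle are replicates 4, 5 and 6 of DS/AA-H/G in blue and replicates 1, 2 and 3 of DS/AA in red), and black bars are the mean ± SD of 3 libraries. The groups overlap for ADE16 among the 10 genes, and the DS/AA circle, replicate 1, is the highest DS/AA point in 9 of them.

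Each library held 30277564 to 32702577 estimated reads, and the ADE gene with the fewest had 1688 in a library, so the counting error (1 SD) was at most 2.43% of a value. Between 93.3% and 96.4% of values below 10 times the library's smallest frequent value, its step, were whole multiples of that step within 0.01. CIT1 itself, whose row does not separate the chromosomal gene from an expressed construct, was lower in DS/AA, at 0.433-fold (limma adjusted p = 1.11e-10), so the form expressed and the amount of its transcript differ together and cannot be told apart in any change given here. Of the 2590 genes called among all tested, 52.8% were higher, a share that was 36.8% under quantile normalization and 71.1% with equal column totals. The 9 ADE genes were called higher under each of these.

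The first steps changed modestly. ADE4 encodes the amidophosphoribosyltransferase that commits PRPP to purines and is known to be held back by the end products. Its scaled counts were 4531, 3795 and 4078 in DS/AA replicates 1 to 3 and 3393, 3245 and 3109 in DS/AA-H/G replicates 4 to 6. The lowest DS/AA library thus lay above the highest DS/AA-H/G library by less than the range within DS/AA. The change was 0.34 ± 0.06 (limma adjusted p = 0.000799). ADE5,7 (YGL234W, chromosome VII, 56482 to 58890) encodes a bifunctional enzyme that acts at the second and the fifth step. Its scaled counts were 16306, 14560 and 15615 in DS/AA compared with 10623, 10498 and 10143 in DS/AA-H/G. The groups were well separated, with a change of 0.57 ± 0.04 (limma adjusted p = 6.66e-07).

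ADE8 and ADE6 had the smallest rises. ADE8 encodes the transformylase that adds the first formyl group. It stood at 2513, 2419 and 2251 scaled counts in DS/AA compared with 1952, 1883 and 2066 in DS/AA-H/G, a change of 0.28 ± 0.05 (limma adjusted p = 0.000926). ADE6 encodes the amidotransferase that takes a nitrogen from glutamine. Its scaled counts were 13585, 12104 and 12633 in DS/AA against 11025, 10988 and 10794, a change of 0.22 ± 0.04 (limma adjusted p = 0.00116). In both genes the lowest DS/AA library lay above the highest DS/AA-H/G library, by 185 scaled counts for ADE8 and by 1079 for ADE6. As for ADE4, each gap was smaller than the range within DS/AA.

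ADE2 and ADE1 encode the enzymes that follow in the chain and are known from the red colour of mutant colonies, in which an intermediate accumulates. ADE2 (YOR128C, chromosome XV, 564476 to 566191, minus strand), the carboxylase gene, had 5931, 5474 and 5560 scaled counts in DS/AA compared with 3541, 3592 and 3518 in DS/AA-H/G. Its change of 0.67 ± 0.04 (limma adjusted p = 8.74e-08) was the next largest after that of ADE17, and its libraries varied little, with coefficients of variation of 4.30% for DS/AA and 1.06% for DS/AA-H/G. ADE1, which encodes the enzyme that attaches aspartate, had 6132, 5161 and 5333 scaled counts in DS/AA compared with 4031, 3834 and 3839 in DS/AA-H/G. The groups did not overlap, and the change was 0.50 ± 0.06 (limma adjusted p = 3.38e-05).

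ADE13 and ADE12 act on the way to AMP. ADE13 encodes adenylosuccinate lyase, which removes fumarate both before IMP and in the last step to AMP. It stood at 10402, 9269 and 9498 scaled counts in DS/AA compared with 7716, 7567 and 7369 in DS/AA-H/G (change 0.36 ± 0.04, limma adjusted p = 4.23e-05). ADE12 (YNL220W, chromosome XIV, 234413 to 235714) encodes adenylosuccinate synthase, the first enzyme of the branch from IMP to AMP. It stood at 7823, 7001 and 7083 scaled counts in DS/AA compared with 4619, 4733 and 4906 in DS/AA-H/G. Its change of 0.62 ± 0.05 (limma adjusted p = 7.14e-07) put it beside ADE2 and ADE5,7, and no library of one group lay within the range of the other.

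The largest contrast lay inside a single step. ADE16 and ADE17 encode isozymes that add the second formyl group and close the ring to IMP. ADE17 (YMR120C, chromosome XIII, 507502 to 509280, minus strand) had 8237, 6579 and 6663 scaled counts in DS/AA compared with 1683, 1773 and 1769 in DS/AA-H/G. Its change of 2.03 ± 0.08 (limma adjusted p = 7.42e-08) was the 54th largest rise among all tested genes. ADE16 (YLR028C, chromosome XII, 199540 to 201315, minus strand) had 13207, 13409 and 13600 scaled counts in DS/AA compared with 13349, 13761 and 13963 in DS/AA-H/G. These overlapped, and the change of -0.03 ± 0.03 did not pass (limma adjusted p = 0.491), with a sign that turned under quantile normalization (0.00051) and equal column totals (0.024), also without passing.

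Because both genes code for the same enzyme activity, their levels were also set against each other per kb of coding length. ADE17 made up 38.4%, 32.9% and 32.8% of the pair in DS/AA replicates 1 to 3, and 11.2%, 11.4% and 11.2% in DS/AA-H/G replicates 4 to 6. The 3 shares in DS/AA were all far above those in DS/AA-H/G. The sum of the pair was 11573 ± 435 scaled counts per kb in DS/AA compared with 8688 ± 204 in DS/AA-H/G. ADE17 accounted for the difference in this sum, since ADE16 stood at 7548 ± 111 and 7709 ± 176 per kb. The log2 ratio of ADE17 to ADE16 was higher in DS/AA by 2.06 ± 0.12 (SE, 3 libraries each). The p-value of a two-sided exact permutation test was 0.1, which is the smallest possible with groups of 3. The coding sequences were 74.7% identical over 1778 aligned bases and had no stretch of 31 bases in common. The longest run of identical bases was 19, at coding bases 1157 to 1175 of both genes (chrXII:200141-200159 in ADE16 and chrXIII:508106-508124 in ADE17), and it is shown as the stretch where they are hardest to separate.
Shared run: aacaaaagagaaacgatgc

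**Figure D2:**
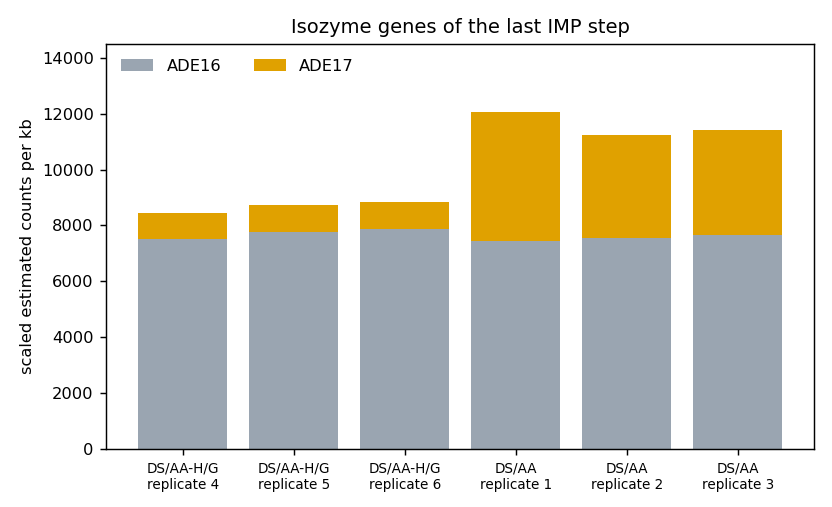
Stacked bars give scaled estimated counts per kb of coding length (vertical axis, from 0) for ADE16 in grey and ADE17 in yellow in each of the 6 libraries, with no error bar because each bar is 1 library. The grey part is of like height in all 6, from 7436 to 7862, and the yellow part is 3698 to 4630 in DS/AA against 946 to 996 in DS/AA-H/G.

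The rise of ADE17 changed its place among the members. In DS/AA-H/G it was the lowest of the 10 genes per kb, at 979 ± 28.7 scaled counts, below ADE2 at 2069 ± 21.9 and ADE4 at 2119 ± 92.8, whose libraries overlapped. In DS/AA it was the sixth, at 4024 ± 525, overlapping ADE8 at 3712 ± 205 and above ADE2 at 3296 ± 142, ADE6 at 3133 ± 184 and ADE4 at 2697 ± 242. ADE16 was the highest per kb in both strains. ADE13, ADE5,7, ADE1 and ADE12 followed it in that order in both, at 5211 ± 120, 4326 ± 103, 4236 ± 122 and 3650 ± 111 in DS/AA-H/G. Of these, ADE5,7 and ADE1 overlapped in DS/AA-H/G. In DS/AA, ADE13 overlapped ADE5,7, which overlapped ADE1, which overlapped ADE12, at 6710 ± 414, 6432 ± 365, 6017 ± 562 and 5608 ± 348 per kb. The spread of levels over the pathway was therefore narrower in DS/AA, where ADE16 and the lowest gene, ADE4, were 7548 and 2697, than in DS/AA-H/G, where ADE16 and ADE17 were 7709 and 979. This narrowing was not tested.

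The DS/AA libraries ranked alike for most members. Replicate 1 was the highest DS/AA library for 9 of the 10 ADE genes, all but ADE16, while it was the highest for 39.4% of all tested genes. The median of the 10 genes over the DS/AA-H/G mean was 0.56 on the log2 scale in replicate 1, 0.35 in replicate 2 and 0.39 in replicate 3. Without replicate 1 the same number, 9, rose, and the median change was 0.37. ADE17 then stood at 1.93 and ADE6, the smallest rise, at 0.18 (limma adjusted p = 0.00175). What sets replicate 1 apart was not tested. The coefficient of variation of ADE17 was 13.1% in DS/AA compared with 2.93% in DS/AA-H/G.

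**Figure D3:**
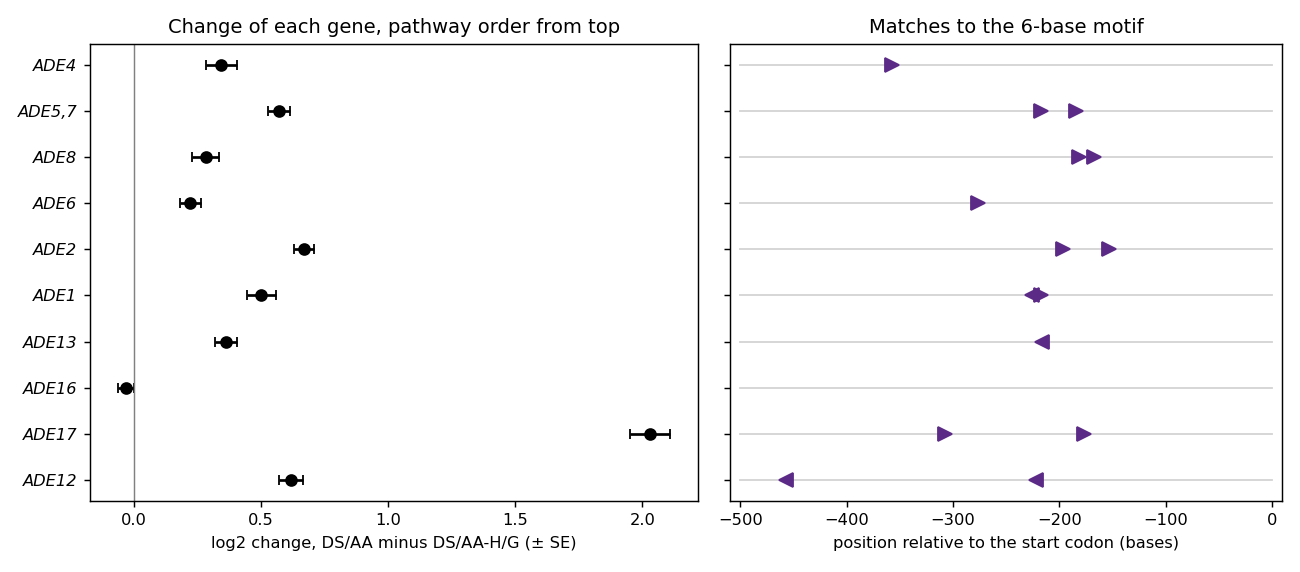
Left, log2 change of each ADE gene (DS/AA minus DS/AA-H/G, horizontal axis) with its SE from limma, in pathway order from the top. Right, positions of the 6-base motif in the 500 bases before each start codon (horizontal axis, bases), with arrowheads pointing right for the strand of the gene and left for the opposite strand. In this window, chosen after seeing the data, ADE16 has neither a called change nor a match, and the 9 other genes have both. Within 300 bases ADE4 has a called change and no match.

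The 9 members with TGACTC in 500 bases were the same 9 that were called higher. Their median change of 0.50 thus left out ADE16 alone and is no test of the motif. Across the genome, 33.0% of the 787 other tested genes with a match in 500 bases rose and 14.1% fell, where 20.5% and 20.8% of the 5320 genes with no match did. With 2 or more matches, and the ADE genes again left out, 50.6% of 81 genes rose and 9.88% fell. These shares were read after seeing the data and do not separate sites of Bas1 from sites of Gcn4. Whether the motif has a part in any change was not tested. Among the members, those with 2 matches changed by 2.03 (ADE17), 0.67 (ADE2), 0.62 (ADE12), 0.57 (ADE5,7), 0.50 (ADE1) and 0.28 (ADE8). Those with 1 match changed by 0.36 (ADE13), 0.34 (ADE4) and 0.22 (ADE6). In the 500-base window all genes with 2 matches except ADE8 thus lay above all genes with 1. Within 300 bases this order did not hold. There ADE17 and ADE12 had 1 match each, as their other matches began at 307 and 457 bases, and ADE4 had none. The order was not tested. Neither regulator gene, BAS1 or PHO2, rose. GCN4, whose product has the same core in its site, was not among the regulators read here. BAS1 stood at 3806, 3211 and 3480 scaled counts in DS/AA compared with 3757, 3593 and 3707 in DS/AA-H/G. These overlapped, and its change of -0.08 did not pass (limma adjusted p = 0.284), although it did without DS/AA replicate 1 (-0.14, adjusted p = 0.0281). PHO2 stood at 1360, 1309 and 1443 against 1505, 1491 and 1571, and fell by 0.15 (limma adjusted p = 0.0293). That call was lost in 8 of 14 alternatives, equal column totals (adjusted p = 0.139) and leaving out any of 5 single libraries among them. Neither BAS1 nor PHO2 had the motif within 500 bases.

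The nearest row upstream of each start codon lay 231 to 717 bases away, 4 of the 10 in the divergent and 6 in the tandem orientation, and every motif match lay in the gap. Of these 10 neighbours 2 rose and 1 fell, where 22.1% and 19.7% of all tested genes did. ADE16 and ADE17 have a matched pair of neighbours, RPL15A and RPL15B, which encode near-identical forms of a ribosomal protein. RPL15B, 453 bases before ADE17, rose from 1201 ± 62.2 to 1524 ± 45.3 scaled counts (change 0.34 ± 0.05, limma adjusted p = 0.000217). RPL15A, 660 bases before ADE16, fell by 0.15 (limma adjusted p = 0.00139), a call not made under quantile normalization (-0.04, adjusted p = 0.344). The remaining neighbour called was POP1, at 0.15 upstream of ADE12 (limma adjusted p = 0.012). These neighbours were taken by position, and named with their values known.

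Genes that supply the pathway were divided. Of 8 genes of folate one-carbon supply 5 rose and 1 fell (median 0.22), read against 22.1% and 19.7% of all genes. In 6 of 14 alternatives 4 rose, among them those without DS/AA replicate 3 or any single DS/AA-H/G library, because SHM2, a serine hydroxymethyltransferase gene at 0.23 (limma adjusted p = 0.049), did not pass there (adjusted p up to 0.117). ADE3, which encodes the cytosolic enzyme that makes formyl-tetrahydrofolate for both formyl steps, rose from 17824 ± 178 to 24408 ± 812 scaled counts (change 0.45 ± 0.03, limma adjusted p = 5.34e-07). GCV1, of the glycine cleavage complex, rose by 0.45 (limma adjusted p = 8.72e-05), while MIS1, the mitochondrial counterpart of ADE3, fell by 0.27 (limma adjusted p = 0.000387). Of these 8 genes 6 had TGACTC within 500 bases, and MIS1 did not. PRPP synthesis did not follow: of the 5 PRS genes, which encode PRPP synthetase subunits, PRS2 fell by 0.22 (limma adjusted p = 0.00155) and none rose. PRS4 and PRS5 were at -0.14 and -0.05 and did not pass, PRS4 being called under quantile normalization (adjusted p = 0.0188) and without DS/AA replicate 3 (adjusted p = 0.0104), and none of the 5 had the motif.

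Of 15 genes of purine salvage, interconversion and uptake 2 rose and 6 fell (median -0.07), where 22.1% and 19.7% of all tested genes did. Under quantile normalization 3 rose and 9 fell. FCY2, the purine and cytosine permease gene, rose from 15198 ± 329 to 20073 ± 342 scaled counts (change 0.40 ± 0.03, limma adjusted p = 1.11e-06). HPT1, whose product recycles hypoxanthine and guanine, rose by 0.48 (limma adjusted p = 1.60e-05). XPT1, of xanthine recycling, fell by 0.41 (limma adjusted p = 1.45e-05). FCY2, HPT1 and XPT1 each had 1 match to TGACTC within 500 bases, and 5 of the 15 genes held the motif. FCY22, a permease gene of the FCY2 family, had the largest change of the list and fell from 141 ± 6.41 to 66.0 ± 5.57 scaled counts (change -1.09 ± 0.14, limma adjusted p = 6.21e-05). AAH1, the adenine deaminase gene, stood at 3120 ± 537 against 4477 ± 144 and fell by 0.54 (limma adjusted p = 0.0141, and 0.0555 without DS/AA-H/G replicate 4). FCY22 and AAH1 were picked with their values known. Salvage and uptake thus moved in both directions.

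At the IMP branch point the sides differed in sign. All 5 genes on the guanine side fell, with IMD4 at -0.72, IMD3 at -0.46 and IMD2 at -0.72 (limma adjusted p = 1.91e-08, 3.02e-07 and 3.02e-07), while ADE12 on the adenine side rose. Of all tested genes 19.7% fell and 22.1% rose. IMD2 is uncertain, since it shares 1212 aligned bases at 96.7% identity with IMD1. Histidine synthesis, which releases an intermediate of the IMP pathway, had 5 of 6 genes risen, with HIS4 at 2.47, HIS1 at 1.13 and HIS5 at 1.12 (limma adjusted p = 2.75e-09, 1.68e-07 and 5.75e-07), and 5 of the 6 had TGACTC. HIS6, which overlaps YIL020C-A by 17 bases on the same strand, fell by 0.16 (limma adjusted p = 0.031), a call lost in 7 of 14 alternatives. HIS6 had 1 match to TGACTC within 500 bases, so the gene of this list without the motif was among the risers.

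**Figure D4:**
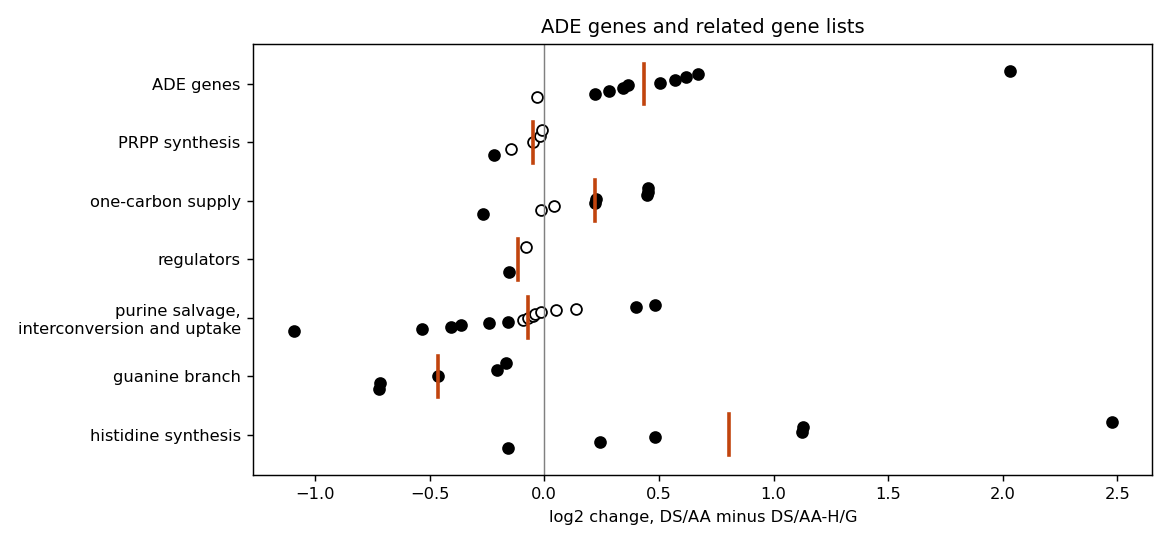
Log2 change (DS/AA minus DS/AA-H/G, horizontal axis) of each ADE gene and of each gene of 6 related lists, 1 point per gene, filled where the limma adjusted p is under 0.05 and open otherwise, with the median of each list as a red line. The ADE genes lie right of 0 except ADE16, all 5 guanine branch genes lie left of it, and salvage and uptake genes lie on both sides.

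The pattern of ADE17 over the 6 libraries was compared with those of 5096 genes at 10 CPM or more, as the Euclidean distance between log2 values centred on each gene's mean. The nearest was MAE1, the malic enzyme gene, at a distance of 0.18, with a change of 1.99 ± 0.05. MAE1 overlaps YKL030W on the opposite strand over 388 bases and is uncertain. MCH5, a riboflavin transporter gene, HSP12, a stress protein gene, YRO2 and AQR1, a plasma membrane transporter gene, followed at 0.31, 0.31, 0.39 and 0.41. The values were not scaled for the size of the change, so this distance largely follows that size. No ADE gene was among the nearest 5, which was fixed beforehand by the changes of 2.03 for ADE17 and 0.67 for ADE2, the next member. AQR1 had 1 match to TGACTC within 500 bases, and the other 4 had none.

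In the authors' deposited table the same split appeared: 9 of the 10 ADE genes had a q-value under 0.05, as did 41.5% of all 6416 rows, and ADE16 had a log2 ratio of -0.03 with a q-value of 0.62. The authors' deposited table gives log2 ratios of 2.04 for ADE17 and 0.22 for ADE6 as the largest and smallest rises.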

How the data were processed

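The submitters' processing notes name build R64 and the tools Salmon 1.2.1, cutadapt 1.18, bcl2fastq 2 and R 3.5.1. The sources used here do not give their order, settings, strand setting or scaling method. The deposited values are a signal: estimated counts divided by 1 factor per library, as read from the values. Only 36.5% to 44.0% of values above 0 were whole multiples of the library's step, so no count model was applied. The authors also deposited log2 ratios, p-values and q-values, a rank as a score, and group means.

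The 6197 rows that reached 1 in 3 or more libraries were tested with limma 3.58.1 in R 4.3.3 (trend, robust) on log2(value + 1), with Benjamini-Hochberg adjustment over all tested genes. The script was tested on simulated data. Lengths are coding lengths. Sequences came from the RefSeq R64 genome, where 5811 rows matched by identifier and 5802 had the same start and end. Members and gene lists were chosen with earlier results of these data known. Motifs, windows of 300 and 500 bases and neighbours were chosen after seeing the data. Named genes were all ADE genes, CIT1, BAS1, PHO2, per list the 3 smallest p and any call opposite to most, and the 5 genes nearest to ADE17.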

Additional observations from a re-analysis of the deposited data

How the results depend on the processing

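The 9 ADE genes were called higher in each of 14 alternatives: 3 scalings, pseudocounts of 0.5 and 5, no filter, a filter of 10, limma without trend and robust moderation, and leaving out each library. The median change of all 10 ADE genes, ADE16 included, was 0.37 to 0.49. The difference between the strains in the ADE17 to ADE16 log2 ratio was 1.95 to 2.12 over the alternatives run for it. With equal column totals 748 genes were called lower against 1222, and PRS5 was at 0.0047 in place of -0.05. ADE16 turned to 0.00051 under quantile normalization, which also set CIT1 to 4.14e-15, since no row was higher in any library, and to 0.024 with equal column totals. Calls lower in PRPP synthesis went from 1 to 2 under quantile normalization and were 1 to 2 with single libraries left out. Calls lower among the regulators went from 1 to 0 with equal column totals, with equal column totals without CIT1 and with limma without trend and robust moderation, and were 0 to 1 with libraries left out. For histidine synthesis, calls lower went from 1 to 0 under both forms of equal column totals and were 0 to 1 with libraries left out. One-carbon genes called higher were 4 to 5 over all alternatives, and salvage and uptake genes 2 to 3 higher and 5 to 9 lower. The causes were not tested. No paired analysis was possible because the groups share no replicate number. Members held at least 1688 estimated reads per library, so depth limits them little.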
